A study of Mus musculus with 4 samples.

Results

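The suprachiasmatic nucleus is the master circadian pacemaker of the mammalian brain and lies just in front of the arcuate nucleus in the floor of the hypothalamus. Its small GABAergic neurons keep time through a loop in which CLOCK and BMAL1 (the product of Arntl) switch on the Per and Cry genes, whose proteins then repress their own transcription, while nuclear receptors of the Ror and Rev-erb (Nr1d1, Nr1d2) families tune Arntl. A ventral, light-receiving core is known for the peptides VIP and GRP, and a dorsal shell for vasopressin (AVP) and prokineticin 2.

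Nuclei with the gene signature of this nucleus were looked for in 4 single-nucleus RNA libraries prepared from arcuate nucleus punches. All mice were wildtype C57BL/6J males of 10 weeks of age. The 2 DOCA-salt libraries came from mice given a subcutaneous pellet of the mineralocorticoid precursor deoxycorticosterone acetate and a sodium chloride drink for 3 weeks, a treatment that raises blood pressure, and the 2 Sham libraries from mice given sham surgery. Each library pooled nuclei from a pair of mice, so a library and not a nucleus is the replicate, and the clock time at which tissue was taken is not given in the sources used here.

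A nucleus was a member when it carried 1 or more UMI (unique molecular identifier, 1 counted transcript) of at least 3 different genes among the 7 gate genes Rgs16, Vipr2, Prok2, Prokr2, Syt10, Nms and Lhx1. Of 41649 barcodes, 39176 passed the filters on nuclei, and 477 of these (1.22%) were members. Values of the 4 libraries are given in the order DOCA-salt 1, DOCA-salt 2, Sham 1, Sham 2. Members numbered 10 and 345 in DOCA-salt 1 and 2, and 47 and 75 in Sham 1 and 2. They were set against 29756 other neurons, which carried at least 2 UMIs of Snap25 plus Syt1 and were not members. Of the 477 members, 432 also passed that neuron criterion. Members were chosen by their measured UMIs of the 7 gate genes, so levels of the 7 gate genes are given below as a description only.

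The libraries differed in depth and in size. Total UMIs were 45126915 and 79437196 in DOCA-salt 1 and 2, and 53257230 and 59293582 in Sham 1 and 2, and kept nuclei numbered 10307, 18907, 2203 and 7759. Members were deeper than the other neurons of their own library in all 4 libraries. Their median UMIs were 12262, 5574, 12012 and 10046, against 3329, 3109, 8252.5 and 4545 in other neurons. Between 1 and 44 barcodes were shared by a pair of libraries, and no member barcode was a member in a second library.

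The 10 members of DOCA-salt 1 went against the label. None carried an Avp UMI. Their Rorb level (47.3 CPM, UMIs per 1000000 UMIs of the population) was not above that of the other neurons of that library (64.2 CPM), though it rested on few UMIs. The 4 listed genes of striatal projection neurons summed to 513 CPM in them against 247 CPM in the other neurons of DOCA-salt 1, and to 9.61 to 20.9 CPM in the members of the remaining libraries. The 8 listed arcuate genes were also higher in them, at 1594 against 1234 CPM, led by Pomc at 797 against 338 CPM. They are therefore called gated nuclei and not suprachiasmatic neurons, and results are given with and without that library. DOCA-salt 2 alone held 72.3% of all members, so the 3 remaining libraries contributed unequally as well.

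Each gate gene was carried by a different part of the members. Rgs16, a brake on G protein signalling whose transcript cycles in the suprachiasmatic nucleus, was found in 426 of the 477 members. Syt10, a synaptotagmin, was found in 318. Prokr2, the receptor for prokineticin 2, was found in 222, and Vipr2, the VIP receptor that couples suprachiasmatic neurons, in 221. Lhx1, a LIM homeodomain factor needed for coupling among these neurons, was also found in 221, the output peptide gene Prok2 in 177, and Nms, encoding neuromedin S, in 121. Rgs16 and Syt10 were found together in 3 of 10, 187 of 345, 32 of 47 and 52 of 75 members.

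**Figure D1:**
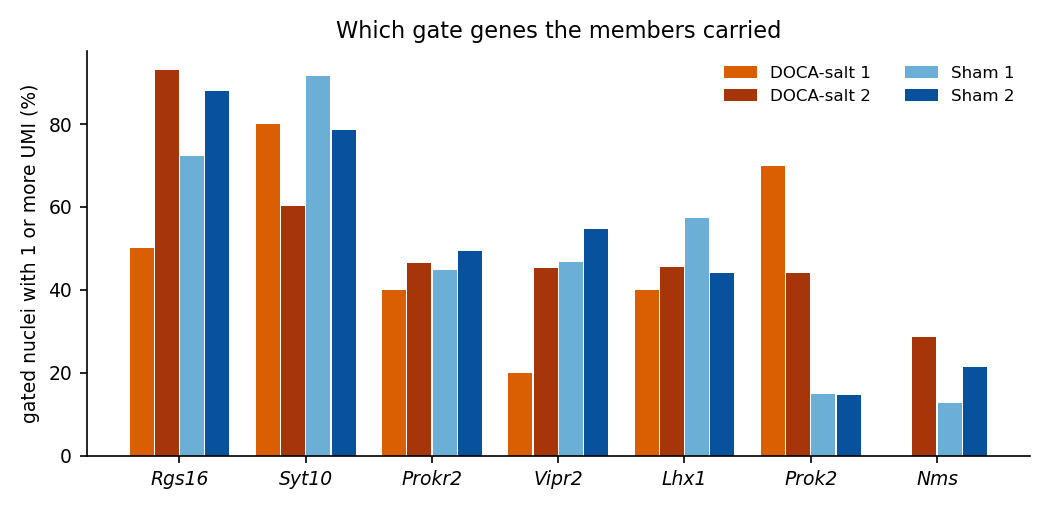
Percentage of gated nuclei with 1 or more UMI of each of the 7 gate genes, 1 bar per library. Rgs16 and Syt10 lead in DOCA-salt 2, Sham 1 and Sham 2, Prok2 was found in 70.0% and 44.1% of members of the DOCA-salt libraries and in 14.9% and 14.7% of the Sham libraries, and Nms in no member of DOCA-salt 1.

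Prok2 differed most in how often it was carried. It was found in 7 of 10 members of DOCA-salt 1 (70.0%), against 44.1% of those of DOCA-salt 2 and 14.9% and 14.7% of those of the Sham libraries. Its level in members was 103, 98.0, 11.2 and 17.3 CPM. The value of DOCA-salt 1 came from 10 nuclei, 1 of which held 6 Prok2 UMIs. The gate itself used Prok2, so these levels depend in part on the rule and no treatment difference is read from them. Among the other neurons the order was different, with 8.52 CPM and 1.87 in DOCA-salt 1 and 2, and 4.18 and 4.13 in Sham 1 and 2. No test was made of a gene that the rule used.

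Oligodendrocyte-like nuclei, which should lack these genes, give the background of free RNA. With a median of 945 UMIs, 6 of 536 such nuclei of DOCA-salt 2 carried Rgs16 and 3 carried Syt10. Of 246 in Sham 2 (median 1572 UMIs), 5 carried Rgs16 and 5 carried Syt10. Sham 1 had only 7 such nuclei, and in DOCA-salt 1 a single nucleus of 121 carried a single gate gene, Prok2. Lhx1 was found in 7 of the 536 of DOCA-salt 2. At an equal depth of 2000 UMIs, Rgs16 and Syt10 were each found in 2 of 44 oligodendrocyte-like nuclei of DOCA-salt 2 (4.55%), against 5.13% and 2.77% of all neurons there. In Sham 2, Syt10 was found in 3 of 76 (3.95%) against 5.00% of neurons, and Rgs16 in none of 76 against 4.05%. Vipr2 and Nms were found more often in these few nuclei than in neurons, with 1 of 44 each (2.27%) against 0.974% and 0.438% in DOCA-salt 2, and 2 and 1 of 76 against 0.842% and 0.211% in Sham 2.

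The promoters of a few genes described here illustrate the element through which CLOCK and BMAL1 act, the E-box CACGTG. The windows below, from RefSeq promoters of build GRCm38.p6, were chosen because they hold an E-box, among the peptide genes high in members (Avp and Cck), the gate genes (Prok2, the only one of the 7 that holds it) and the clock genes (Per1). Each is printed 5′ to 3′ on the gene's strand, with the E-box in capitals.

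Avp (chr2:130582682-130582767, minus strand): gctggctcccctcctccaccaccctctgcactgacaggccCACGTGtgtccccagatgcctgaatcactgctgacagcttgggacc

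Prok2 (chr6:99726482-99726567, minus strand): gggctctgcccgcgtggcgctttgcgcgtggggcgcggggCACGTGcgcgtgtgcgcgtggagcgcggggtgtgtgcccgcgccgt

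Per1 (chr11:69098743-69098828, plus strand): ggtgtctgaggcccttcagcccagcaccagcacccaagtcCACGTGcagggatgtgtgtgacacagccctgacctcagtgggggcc

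Cck (chr9:121495715-121495800, minus strand): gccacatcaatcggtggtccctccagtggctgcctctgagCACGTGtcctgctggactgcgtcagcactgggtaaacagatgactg

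The E-box begins 139 bases before the RefSeq start of Avp, 135 before that of Prok2, 166 before that of 1 RefSeq start of Per1 and 66 before that of Cck. These starts can differ from the GENCODE gene ends used for gene positions. Searched over the 250 bases before a start (the motif reads the same on both strands), it was found in 6.02% of all 32851 RefSeq windows. It was found in 6 of 25 windows of the clock list, of Bhlhe41, Ciart, Cry1, Per1 and Tef, and in 1 of 7 windows of gate genes. Among windows of genes called higher in members, 25 of 296 (8.45%) held it, next to 8.01% of the windows of all genes tested, so the genes that were higher carried it about as often as tested genes did. These matches describe letters, not occupied sites.

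The share of nuclei inside the gate varied more within a treatment than between treatments. Members made up 0.0970% of kept nuclei in DOCA-salt 1 (exact Clopper-Pearson 95% interval 0.0465 to 0.178%) and 1.82% in DOCA-salt 2 (1.64 to 2.03%), and 2.13% in Sham 1 (1.57 to 2.83%) and 0.967% in Sham 2 (0.761 to 1.21%). These intervals cover counting error only. The mean share was 0.589 percentage points lower with DOCA-salt, and the groups overlapped (two-sided exact permutation test, p = 0.667, where 2 libraries against 2 cannot go below 0.333). Without DOCA-salt 1 the difference turned to 0.275 points higher.

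The library with the highest share changed once depth was equalised. When every nucleus was thinned to 2000 UMIs and shallower ones were left out, the shares became 0 (of 5900 nuclei, which allows up to 0.0508%) and 0.666% in DOCA-salt 1 and 2, and 0.186% and 0.333% in Sham 1 and 2. Sham 1, with the deepest nuclei, no longer had the highest share. After thinning to 4000 UMIs the shares were 0, 1.52, 0.742 and 0.475%, with Sham 1 in second place. The Sham values rested on 4 and 17 nuclei at 2000 UMIs and on 14 and 16 at 4000, with overlapping exact intervals at both depths (0.0508 to 0.477% and 0.194 to 0.533%, then 0.406 to 1.24% and 0.272 to 0.771%), so their order was not resolved. With 4 or more gate genes the counts were 0, 132, 16 and 27 nuclei. In DOCA-salt 1 no nucleus reached 4 genes, which allows a share of up to 0.0291% (3 counts of 10307).

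**Figure D2:**
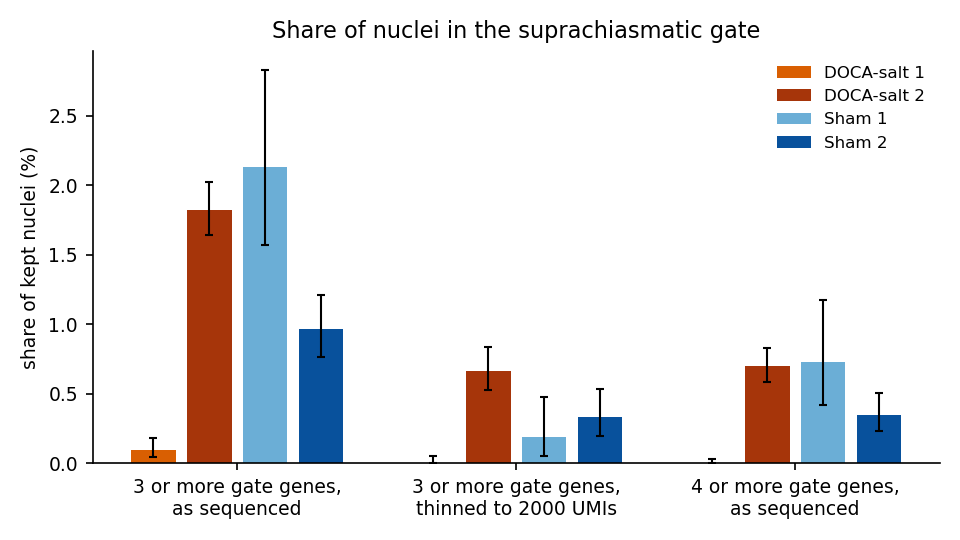
Share of kept nuclei inside the gate (percent), 1 bar per library, with exact 95% intervals as error bars (for a share of 0, the limit of 3 counts), for 3 or more gate genes as sequenced, after thinning each nucleus to 2000 UMIs, and for 4 or more gate genes. DOCA-salt 1 sits at 0.0970% or at 0, and the highest bar moves from Sham 1 at 2.13% to DOCA-salt 2 at 0.666% after thinning.

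The threshold of 3 genes cut through a falling series: 987 nuclei carried exactly 2 gate genes, 302 carried 3, 101 carried 4, 52 carried 5, 18 carried 6 and 4 carried all 7. Just outside the gate, nuclei with exactly 2 gate genes held Avp at 1.62 CPM and 1452 in DOCA-salt 1 and 2, and 85.6 and 194 in Sham 1 and 2. Just inside it, nuclei with exactly 3 held 0, 3142, 289 and 365 CPM. Nuclei with 4 or more held 6369, 2452 and 2255 CPM in the libraries other than DOCA-salt 1. The level thus climbed with each step in these 3 libraries. In DOCA-salt 1 the 10 members held 126736 UMIs, in which a count of 0 allows up to 23.7 CPM, so no direction is read there.

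The same held for transcription factors that the gate did not use. Rora, a nuclear receptor that activates Arntl, stood at 75.6 CPM in nuclei with 2 gate genes, 167 with 3 and 576 with 4 or more in Sham 1. In Sham 2 the steps were 129, 177 and 745 CPM and in DOCA-salt 2 they were 220, 423 and 678 CPM. In DOCA-salt 1 Rora stayed at 67.4 and 63.1 CPM, near the 55.5 CPM of its other neurons. In the same 3 libraries Per2 reached 110, 94.1 and 106 CPM in nuclei with 4 or more gate genes, a narrower span than among nuclei with exactly 3, at 83.5, 44.1 and 32.5 CPM.

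**Figure D3:**
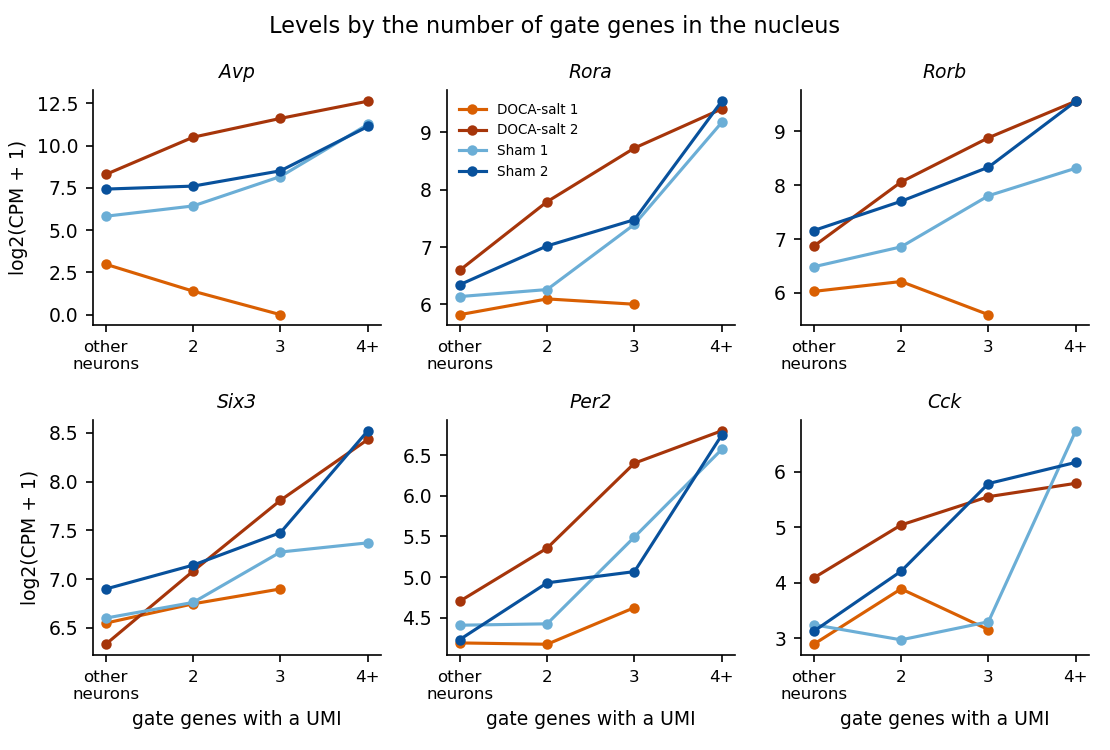
Level, as log2(CPM + 1), of 6 genes outside the gate in other neurons and in nuclei with 2, 3, or 4 and more gate genes, 1 line per library. Avp, Rora, Rorb, Six3 and Per2 climb from 2 to 4 and more gate genes in DOCA-salt 2, Sham 1 and Sham 2, whereas in DOCA-salt 1 Avp is at 0 in nuclei with 3 (up to 23.7 CPM is allowed) and no nucleus has 4.

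Members were then compared with the other neurons of the same library on summed UMIs with edgeR's quasi-likelihood test, the library as a block and the gate genes and Snap25 and Syt1 left out. Of 14485 genes tested, 278 (1.92%) were higher and 211 (1.46%) lower in members at a Benjamini-Hochberg adjusted p under 0.05, 3.38% in all. Without DOCA-salt 1 the counts were 368 higher (2.52%) and 310 lower (2.12%) of 14589, 4.65% in all. The genes compared were measured in the same nuclei as the gate genes, and the gate favours deep nuclei. Against other neurons matched to members in UMIs, 158 genes were higher and 82 lower.

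Of 10 peptide and signal genes of the suprachiasmatic nucleus that were tested (all outside the gate), 5 were higher in members (Avp, Vip, Grp, Cck and Tgfa) and Nts was lower. The median log2 fold change of the list was 1.25, next to -0.02 over all genes tested. Without DOCA-salt 1 the same genes were called in the same directions, with a median of 1.33.

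Avp (chr2:130580620-130582554, minus strand, GRCm38), the vasopressin gene of the shell, was the most abundant of these in members, except in DOCA-salt 1. In members it measured 0 CPM and 4607 in DOCA-salt 1 and 2, and 878 and 959 in Sham 1 and 2. In the other neurons it measured 6.91, 314, 55.7 and 172 CPM. It was thus higher in members in 3 of 4 libraries and not detected in those of DOCA-salt 1, where up to 23.7 CPM is allowed, with a log2 fold change of 3.41 (SE 0.194, edgeR adjusted p = 5.27e-12), or 3.48 without DOCA-salt 1. DESeq2 gave 2.73 with an adjusted p of 0.143, and the adjusted p was under 0.05 in each edgeR fit with the library as a block.

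Avp UMIs were also found in oligodendrocyte-like nuclei, which should lack the gene, at a lower share. In DOCA-salt 2, 76.8% of members carried an Avp UMI at a median of 5574 UMIs, against 16.2% of oligodendrocyte-like nuclei at a median of 945. In Sham 2 the shares were 52.0% of members and 10.98% of oligodendrocyte-like nuclei, with medians of 10046 and 1572 UMIs. After thinning to 2000 UMIs, Avp was found in 73.3% of 285 members of DOCA-salt 2, 36.2% of 47 of Sham 1 and 38.9% of 72 of Sham 2. The thinned other neurons of these libraries carried it in 12.3%, 9.88% and 8.73%. In DOCA-salt 1, 0 of 10 thinned members and 0.532% of the thinned other neurons did.

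Members with Avp UMIs and members without differed in other genes as well. In Sham 2, the 39 members with Avp held Rora at 556 CPM and Six6 at 68.6 CPM, and the 36 without held 165 and 19.4 CPM. In Sham 1, Rora stood at 427 CPM in the 25 members with Avp and at 146 CPM in the 22 without. In DOCA-salt 2 it was 619 CPM in 265 and 250 CPM in 80. Members without Avp thus still held more Rora than the other neurons of these 3 libraries, which stood at 80.2, 69.35 and 95.7 CPM.

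The core peptides were rare. Vip, the coupling peptide of the core, was carried by 1, 25, 2 and 13 members. Its levels in members, 237, 42.6, 3.20 and 99.1 CPM, and in other neurons, 1.22, 2.24, 27.3 and 24.0 CPM, put Sham 1 on the opposite side from the rest (log2 fold change 2.80, SE 0.584, edgeR adjusted p = 0.00391, DESeq2 adjusted p = 0.587). The value of DOCA-salt 1 came from 30 UMIs in 1 nucleus. Grp, the gene of gastrin-releasing peptide, was higher by 1.55 on the log2 scale (SE 0.275, edgeR adjusted p = 0.000671), with 15.8, 30.7, 12.8 and 9.91 CPM in members and 2.86, 11.7, 3.599 and 3.58 CPM in other neurons. Nuclei with 5 or more UMIs of both Avp and Vip numbered 5 in DOCA-salt 2 and none elsewhere among members.

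Cck, encoding cholecystokinin, was higher in members of DOCA-salt 2, Sham 1 and Sham 2, and in DOCA-salt 1 its level rested on 1 UMI. A single nucleus held 16 of the 22 Cck UMIs of the members of Sham 1. It measured 7.89 CPM and 49.7 in DOCA-salt 1 and 2, and 35.3 and 59.5 in Sham 1 and 2, against 6.41, 16.0, 8.46 and 7.71 CPM in other neurons, a log2 fold change of 2.11 (SE 0.236, edgeR adjusted p = 1.14e-06). Tgfa, a growth factor released by the nucleus that acts on locomotor activity, was higher by 1.29 (edgeR adjusted p = 0.00113). Nts, the neurotensin gene, was lower by a log2 fold change of -0.88 (edgeR adjusted p = 7.69e-05). Tgfa was not called without DOCA-salt 2 (0.56) or with DESeq2. Penk, Sst and Gal were not called, with log2 fold changes of 0.01, -0.47 and -0.48.

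Of 9 transcription factors that specify or maintain the nucleus, 6 were higher and none lower, with a median log2 fold change of 1.22. Rora rose by 2.15 (SE 0.132, edgeR adjusted p = 1.80e-11) and Rorb, its close relative, by 1.81 (SE 0.149, edgeR adjusted p = 8.07e-09). Rorb levels in members were 47.3, 599, 248 and 457 CPM, and in other neurons 64.2, 116, 88.6 and 142 CPM. DOCA-salt 1 alone lay on the other side, and its member value rested on few UMIs. DESeq2 did not call Rorb (1.41, adjusted p = 0.267), Vax1 or Zfhx3. Six6 and Six3, homeobox genes of the developing eye and ventral forebrain, rose by 1.73 and 1.22. Six3 in Sham 1 was higher in level (157 CPM in members and 96.0 in other neurons), but after thinning to 2000 UMIs it was found in 6 of 47 members (12.8%) and in 16.2% of the other neurons there. Vax1 rose by 1.34 and Zfhx3, in which mutation shortens the circadian period, by 0.49. Dlx1, Dlx2 and Tshz3 were not called, and Dlx2 was called without DOCA-salt 1 (0.76, edgeR adjusted p = 0.0278). Without DOCA-salt 2, Vax1 and Zfhx3 were no longer called (1.06 and 0.25), nor was Zfhx3 without Sham 2 (0.46).

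**Figure D4:**
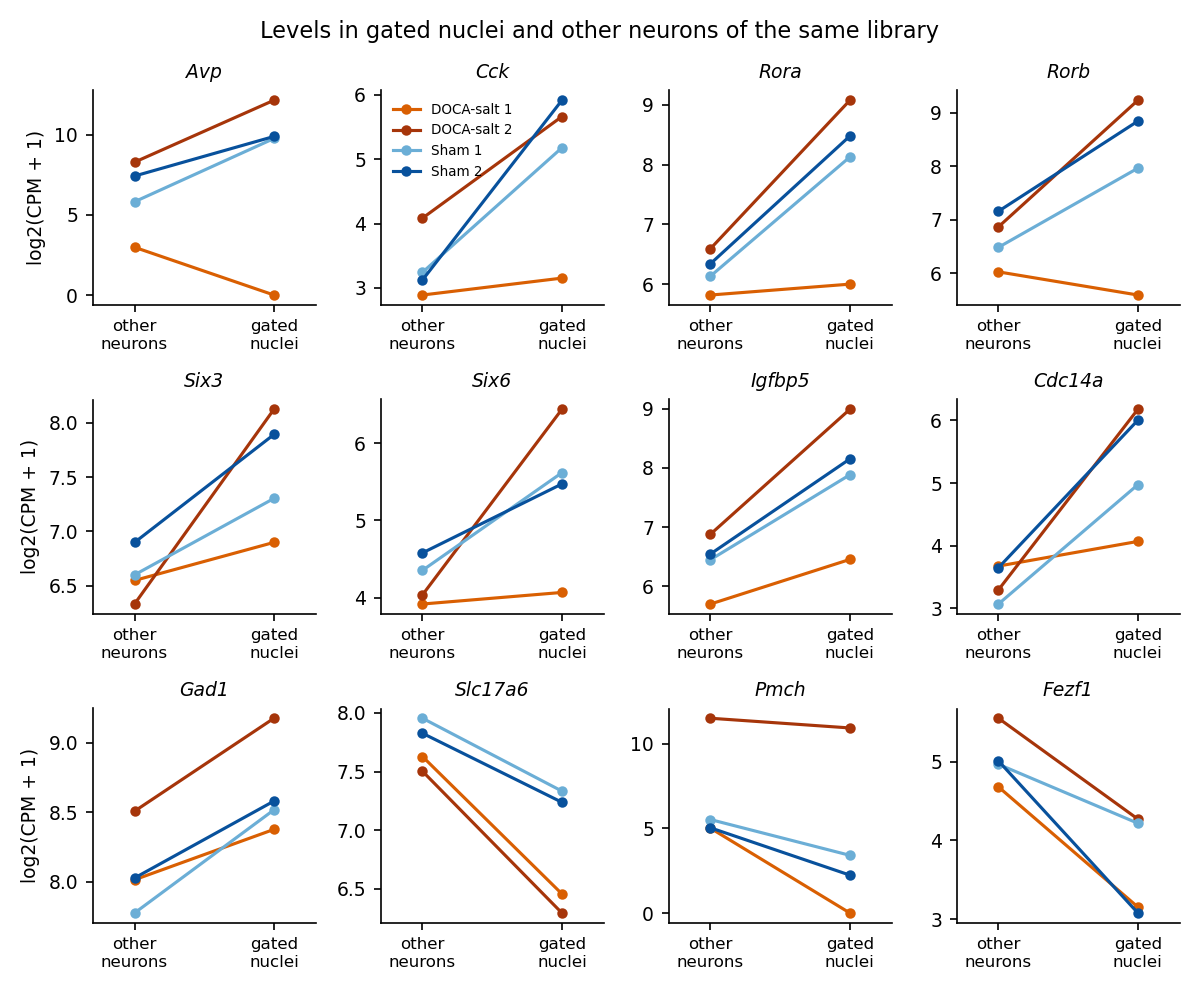
Level, as log2(CPM + 1), of 12 genes in other neurons and gated nuclei, 1 line per library. Avp, Cck, Rora, Rorb, Six3, Six6, Igfbp5 and Cdc14a are higher in gated nuclei of DOCA-salt 2, Sham 1 and Sham 2. Slc17a6, Pmch and Fezf1 fall in all 4 libraries, though gated nuclei of DOCA-salt 1 held few or no UMIs of Pmch and Fezf1.

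The clock genes that were called were higher in members. Of 22 tested, 10 were higher in members and none lower, and the list's median log2 fold change was 0.35, next to -0.02 over all genes. The same 10 were called without DOCA-salt 1, with a list median of 0.39. Among the negative arm, Per2 rose most, by 1.72 (SE 0.154, edgeR adjusted p = 2.51e-08). Its levels were 23.7, 95.7, 57.7 and 55.8 CPM in members, and 17.3, 25.05, 20.2 and 17.8 CPM in other neurons. The value of DOCA-salt 1 members rested on 3 UMIs, and after thinning to 2000 UMIs 0 of its 10 members and 3.37% of its other neurons carried Per2. Per1 rose by 0.85 and Cry1 by 1.01, while Per3 (0.28) and Cry2 (0.26) were not called.

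Within the positive arm, Arntl rose by 0.76 (SE 0.169, edgeR adjusted p = 0.00799) and Clock by 0.37 (SE 0.104, edgeR adjusted p = 0.0458). Nr1d1, the repressor REV-ERBα, rose by 1.24 and its relative Nr1d2 by 0.52. The output factors Dbp and Hlf, which bind D-box elements, rose by 0.92 and 1.08, although Dbp was lower in members of Sham 1 (51.3 CPM) than in its other neurons (72.2 CPM), and the third factor of that family, Tef, was not called (0.07). Fbxl21, an F-box protein that acts on cryptochromes, rose by 1.49. Without DOCA-salt 2, Per1, Cry1, Dbp, Arntl, Fbxl21, Clock and Nr1d2 were no longer called (0.33, 0.60, 0.28, 0.68, 1.07, 0.20 and 0.35), whereas Per2 (1.499), Nr1d1 (0.75) and Hlf (0.76) were. Without Sham 2, Clock was not called (0.40). DESeq2 called 3 of the 10, Per2, Hlf and Fbxl21.

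**Figure D5:**
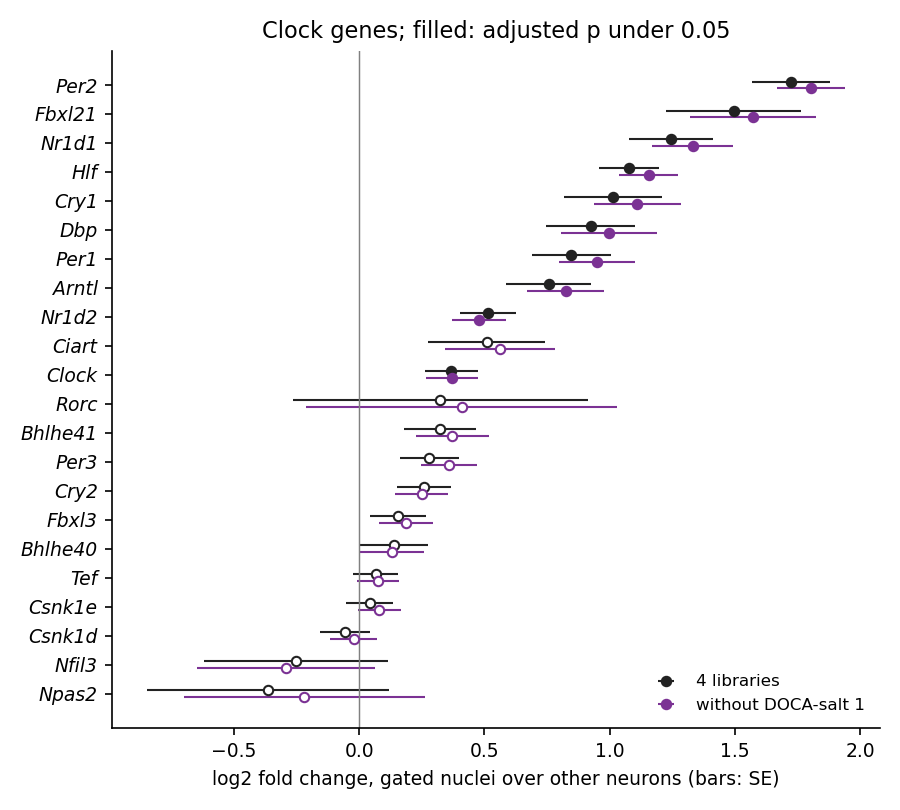
Log2 fold change of 22 clock genes, gated nuclei over other neurons, with SE bars, for all 4 libraries (black) and without DOCA-salt 1 (purple); filled points had an adjusted p under 0.05. The same 10 genes are filled in both fits, from Clock at 0.37 to Per2 at 1.72 with all libraries.

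Among 17 receptors and channels tested, Avpr1a, Grpr, Drd1 and Kcnc2 were higher and none was lower, with a list median of -0.05. Over all genes tested, 1.92% were higher and 1.46% lower, with a median of -0.02. Kcnc2, a Kv3 potassium channel of fast-firing neurons, rose by 0.84 (SE 0.122, edgeR adjusted p = 5.53e-05). Avpr1a, the vasopressin V1a receptor, and Grpr, the GRP receptor, rose by 1.44 and 1.68 from levels of a few CPM. Drd1, the D1 dopamine receptor, rose by 2.03 (SE 0.216), with 110 CPM in members of DOCA-salt 1 and 30.7, 16.0 and 29.7 CPM in the others. The other neurons held 41.3, 6.67, 5.16 and 5.41 CPM. Drd1 also marks striatal neurons, whose genes were high in DOCA-salt 1 members, and without that library Drd1 was higher by 2.20. Avpr1a and Grpr were not called without DOCA-salt 2 (0.57 and 0.99).

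Members held more RNA of GABA genes and less of a glutamate transporter. Gad1 and Gad2, the GABA-synthesizing enzymes, rose by 0.63 and 0.38, and Slc32a1, the vesicular GABA transporter, by 0.35. Slc17a6, the vesicular glutamate transporter VGLUT2, was lower by a log2 fold change of -0.85 (SE 0.109, edgeR adjusted p = 7.47e-06), with 86.8, 77.4, 160 and 150 CPM in members and 197, 180, 247 and 226 CPM in other neurons. It was lower in all 4 libraries, and the groups of values did not overlap. A UMI of a GABA gene was carried by 10 of 10, 333 of 345, 46 of 47 and 72 of 75 members. The shallower other neurons carried it in 5459 of 7399, 11321 of 14356, 2029 of 2124 and 4962 of 5877. In Sham 1 its presence thus did not set members apart. Slc17a6 was carried by 93 of 345 members of DOCA-salt 2, 33 of 47 of Sham 1 and 44 of 75 of Sham 2 (58.7%), where 47.7% of the shallower other neurons of Sham 2 carried it. Against other neurons chosen for carrying a GABA gene UMI and no Slc17a6, 198 genes were higher and 67 lower. Gad1 was not called there, Slc32a1 and Gad2 turned to -0.25 and -0.17, neither called, and Avp, Rora, Rorb, Per2 and Cck remained called. Slc32a1 was not called without DOCA-salt 2 (0.37) or Sham 2 (0.35), nor Gad2 without Sham 2 (0.39), and with the gate applied after thinning the values of Slc32a1 and Gad2 turned to -0.026 and -0.23, neither of them called.

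Markers of neighbouring nuclei were lower where they were called. For the counts below, the shares over all genes tested were 1.46% lower and 1.92% higher. In the arcuate list Agrp, Npy and Tac2 were lower (3 of 7 tested), in the ventromedial list Nr5a1, Fezf1 and Adcyap1 (3 of 4), in the lateral hypothalamic list Hcrt and Pmch (both tested) and in the paraventricular list Otp and Oxt (2 of 5). None of these genes was higher against all other neurons, whereas against GABAergic other neurons Fezf1 (0.28), Nr5a1 (0.67), Adcyap1 (0.58) and Hcrt (0.032) turned direction, none of them called. Without DOCA-salt 1 the arcuate genes called lower were Pomc, Cartpt and Tac2, since Agrp and Npy missed the threshold (edgeR adjusted p = 0.145 and 0.0700). Without DOCA-salt 2, Oxt, Otp, Hcrt, Nr5a1 and Adcyap1 were not called (-0.35, -0.39, -0.60, -0.66 and -0.32), and without Sham 2, Agrp, Npy and Nr5a1 were not (-0.58, -0.32 and -1.08). Members also held less of 4 of 8 oligodendrocyte genes (among them Mog, Ermn and Cldn11), and none of 4 astrocyte genes was called. Of these, Mog was lost without either Sham library (-0.72 and -0.61), Cldn11 without Sham 2 (-0.55) and Ermn without DOCA-salt 2 or Sham 2 (-0.71 and -0.87).

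Oligodendrocyte transcripts were nevertheless present in members. The 8 genes of that list summed to 544 CPM and 1396 in DOCA-salt 1 and 2, and 1668 and 1683 in Sham 1 and 2, against 612, 1589, 2738 and 2441 CPM in other neurons. Astrocyte genes summed to 1176, 1344, 1399 and 1244 CPM in members, led by Slc1a2. Their part in the results was not tested beyond the counts without nuclei that carry such markers. When members with 1 UMI of 2 non-neuronal markers were left out (1, 81, 0 and 5 members remained), Pmch, Clock and Gad2 turned to 0.018, -0.029 and -0.28, none of them called.

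By size of change, genes outside the lists led as well. The highest 15 that were on 1 side in all 4 libraries included Slc12a7, a potassium-chloride cotransporter (2.52, SE 0.297), Cdc14a, a dual-specificity phosphatase (2.52, SE 0.225), Igfbp5, a binding protein of insulin-like growth factors (1.74, SE 0.115), and Grin2c, an NMDA receptor subunit (1.51, SE 0.181). Igfbp5 measured 86.8, 508, 236 and 284 CPM in members and 51.1, 117, 86.5 and 92.5 CPM in other neurons. The remaining genes of that set were Rora, Fam122b, Cck, Drd1, Nr4a3, Ccdc134, Six6, Per2, Fam43a, Tspan14 and Avpi1, with log2 fold changes between 1.49 and 2.15. Of the 15, Nr4a3 (1.21) and Tspan14 (1.28) were not called without DOCA-salt 2.

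When DOCA-salt 1 was left out, Avp (3.48), Gm7694 (2.84), Sema3e (2.68), Rasl11b (2.66), Rasd1 (2.44), Creb3l1 (2.37) and Kcnh8 (2.07) entered that set. Rasd1 encodes a Ras-like protein that shapes the response of the clock to light. It measured 68.1 CPM in members of DOCA-salt 2, 67.3 in Sham 1 and 70.6 in Sham 2, 3 nearly equal values, against 10.4, 13.6 and 17.0 CPM in other neurons, and 7.89 CPM in members of DOCA-salt 1. Sema3e, a guidance ligand, measured 29.5, 22.4 and 49.6 CPM in members of the 3 libraries and 0 in those of DOCA-salt 1, where up to 23.7 CPM is allowed. Creb3l1 was not called without DOCA-salt 2 (0.87).

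The lowest 10 genes with measured levels on 1 side in all 4 libraries included Flt1 (-1.33), an endothelial VEGF receptor, Fezf1 (-1.33), a ventromedial factor, Cbln1 (-1.02), Kctd4 (-1.02), Hcrt (-1.005), Chrna4 (-0.93), Esyt3 (-0.93), Camk1g (-0.92) and Ermn (-0.91). Members of DOCA-salt 1 held no Hcrt UMI, which allows up to 23.7 CPM there, so no side is read for Hcrt in that library. Fezf1 measured 7.89, 18.3, 17.6 and 7.44 CPM in members and 24.7, 46.1, 30.3 and 31.3 CPM in other neurons, and its value in DOCA-salt 1 members rested on few UMIs. Kctd4, Chrna4, Esyt3, Camk1g, Hcrt and Ermn were not called without DOCA-salt 2, and Kctd4, Chrna4 and Ermn not without Sham 2 either. Cbln1, Fezf1 and Hcrt turned to 0.17, 0.28 and 0.032 against GABAergic other neurons, none of them called.

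Immediate early genes, which report recent activity, and genes of the corticosteroid response were also followed. Of 10 immediate early genes, Fos (0.89), Fosl2 (1.42) and Nr4a1 (1.24) were higher in members and none was lower (list median 0.25). The shares over all genes tested were 1.92% higher and 1.46% lower. Fos, Fosl2 and Nr4a1 were not called without DOCA-salt 2 (0.78, 0.70 and 1.05), nor Fos without Sham 2 (0.90). Of 7 corticosteroid genes tested, Nr3c1, the glucocorticoid receptor, was lower by a log2 fold change of -0.49 (SE 0.105, edgeR adjusted p = 0.00538, not called without DOCA-salt 2 at -0.45), and none was higher. Nr3c2, the mineralocorticoid receptor on which DOCA acts, was not called (0.15), with 23.7, 11.2, 30.4 and 14.9 CPM in members and 17.7, 11.7, 20.8 and 16.1 CPM in other neurons. None of 6 renin-angiotensin genes was called.

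DOCA-salt and Sham were compared within members over all 4 libraries. Of 9564 genes tested by edgeR, none was called, 766 (8.01%) had an unadjusted p under 0.05, and DESeq2 called 3, all lower with DOCA-salt. The lowest adjusted p, 0.0564, belonged to Bc1, a short neuronal RNA of dendrites, at a log2 fold change of -3.61. Bc1 measured 142 and 257 CPM in members of the DOCA-salt libraries and 2325 and 2794 CPM in those of the Sham libraries. The other neurons showed the same gap, with 207, 306, 2218 and 3058 CPM.

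Leaving out DOCA-salt 1 raised the count to 371 higher (3.59%) and 621 lower (6.01%) of 10331 genes, 9.60% in all. Those p-values rest on 1 DOCA-salt library, whose spread is taken to equal that of the 2 Sham libraries, so they set DOCA-salt 2 against Sham more than treatment against treatment. In that fit 6 of 19 clock genes were higher in DOCA-salt 2 and none lower (Per1, Per2, Cry1, Nr1d1, Dbp and Bhlhe41). Other lists moved with them. The list median was 7.24 for the 2 lateral hypothalamic genes, Hcrt and Pmch. It was -1.75 for 7 arcuate genes, whose values ran from -4.69 to 1.41. The part of these markers in the clock gene values was not tested. All 6 nuclear and ambient RNA genes were lower (list median -1.61), 4 of 8 transcription factors of the nucleus were higher (Six6, Vax1, Rora and Rorb, list median 0.68), and the median over all genes tested was -0.02. The 6 nuclear and ambient genes, led by Malat1, summed to 72986, 44150, 72040 and 83022 CPM in members, lowest in DOCA-salt 2, and their part in the clock gene values was not tested. Dbp, an output gene with a strong daily rhythm, measured 126, 258, 51.3 and 120 CPM in members. Its other neurons stood at 79.8, 84.0, 72.2 and 78.8 CPM, a narrow span beside that of members. With all 4 libraries its log2 fold change was 1.26 (edgeR adjusted p = 0.573).

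Avp was higher in DOCA-salt 2 members than in Sham members by a log2 fold change of 2.29, and 1.35 with DOCA-salt 1 included (edgeR adjusted p = 0.80). It turned to -0.55 with the replicate number as a block and to -0.40 with the numbers crossed, and without DOCA-salt 2 the DOCA-salt members held no Avp. Its other neurons also differed, from 6.91 to 314 CPM within DOCA-salt. Markers of neighbouring nuclei differed between the libraries as well. Agrp, the marker of arcuate feeding neurons, measured 190, 1.52, 52.1 and 84.4 CPM in other neurons, and Pmch, of lateral hypothalamic neurons, 31.3, 2910, 44.9 and 31.8 CPM. The part of dissection in these differences was not tested.

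Whether DOCA-salt acted on members in another way than on other neurons was asked with a population by treatment term. Of 15198 genes, 14 (0.0921%) had a higher difference in members and 1 (0.00658%) a lower one, 0.0987% in all. DESeq2 called none. For Dbp the DOCA-salt effect was 1.27 higher in members on the log2 scale (SE 0.212, edgeR adjusted p = 8.02e-06), with ratios of members to other neurons of 1.57, 3.04, 0.714 and 1.52. The order of DOCA-salt 1 and Sham 2 in this ratio turned with TMM scaling (1.49 and 1.53), and Dbp was not called without DOCA-salt 2 (0.35) or without Sham 1 (0.70).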

How the data were processed

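The authors isolated nuclei from bilateral arcuate punches, built 10x Genomics 3′ v3 libraries and, per the labels, counted them with Cell Ranger 3.0.1 on mm10. Whether introns were counted is not given in the sources used here. The deposited matrices hold raw UMI counts per gene and barcode for 31053 features. A barcode was kept at 201 to 6999 genes, below 25000 UMIs and below 15% of UMIs from mt- genes. No doublet caller was run. Libraries are 4 separate pools of mice. The edgeR test pools the spread between libraries over genes, so its p-values do not measure the spread of a single gene alone. Fits that leave out a library rest on fewer pools.

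Counts were summed per library over members and over other neurons, and tested with edgeR 4.0.16 (TMM scaling, filterByExpr, glmQLFTest) in R 4.3.3, with Benjamini-Hochberg adjustment over all genes tested. Levels are UMIs per 1000000 summed UMIs of the population (CPM). Treatment was tested on members alone, membership with the library as a block, and their difference with an interaction term. Shares were compared by an exact permutation test over libraries (scipy 1.17.1). Alternatives were DESeq2 1.42.0, other scalings, filters, gates and other neurons, thinning, and leaving out each library. Beyond the genes of the lists, the text names the 15 highest and 10 lowest genes by log2 fold change that were called, on 1 side in all libraries and at 20 CPM or more in the higher population. It also names called genes of lowest p whose libraries did not overlap. A few genes that these rules or lists hold are not reported here. Members, lists and rules were chosen with earlier results of these data known. On simulated counts, log2 changes of 2 were recovered for 95% of changed genes tested (14390 genes) in the comparison with other neurons and 58.8% (9299 genes) in that of treatments, and changes of 4 for 88% (15108 genes) in the interaction, with none in the wrong direction. False calls numbered 7, 3 and 7. All libraries were drawn from a shared profile at a dispersion of 0.1, and changed genes were expected at 3 or more UMIs in the smallest member library. The simulation lacked the differences in composition between the real libraries, so it does not give the power of the fits here.

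Gene positions are from GENCODE M21 (GRCm38). RefSeq promoters matched 17 of the 23 clock genes and all 7 gate genes.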

Additional observations from a re-analysis of the deposited data

Results flagged for a closer look

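The difference of the DOCA-salt effect between gated nuclei and other neurons was called for 15 genes. For 8 of them the TMM-scaled ratio of members to other neurons did not overlap between the DOCA-salt and Sham libraries, and for 9 with unscaled CPM, Dbp (given above) included. These counts include Oxt, of which members of DOCA-salt 1 held no UMI. A count of 0 there allows up to 23.7 CPM, so non-overlap is not shown for Oxt. Non-overlap was not counted over all 15198 genes tested, so nothing is read from these counts. No gene was called against other neurons matched in UMIs. None was called either without nuclei of both populations that carry 2 UMIs of 2 non-neuronal markers, which left 3, 160, 3 and 20 members.

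Vip had the most positive difference, 4.33 on the log2 scale (edgeR adjusted p = 3.23e-26). That p-value leans on a spread pooled over genes, while Vip ratios of members to other neurons were 107, 13.4, 0.149 and 4.01. Members carried 30 Vip UMIs and 114 in DOCA-salt 1 and 2, and 2 and 80 in Sham 1 and 2, so the difference rested on few nuclei. It turned to -0.85 with the gate applied after thinning, a fit that also lacks DOCA-salt 1 (no member left). Oxt, the oxytocin gene, had the only negative one, -2.40 (edgeR adjusted p = 3.63e-21), with 0, 136, 72.1 and 428 CPM in members and 8.52, 970, 175 and 413 CPM in other neurons. A single nucleus held 270 of the 345 Oxt UMIs of the members of Sham 2, and another held 156 of the 364 of DOCA-salt 2. The difference turned to 0.093 in that same fit of 3 libraries and to 0.98 against other neurons matched in UMIs.

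Pde10a, a phosphodiesterase abundant in striatal neurons, differed by 0.86, with 458, 175, 128 and 183 CPM in members and 187, 51.7, 88.7 and 97.65 CPM in other neurons. Rasgrp1 differed by 1.02 and Hes5, a target of Notch signalling, by 1.40. The myelin gene Mal differed by 1.29, and the haemoglobin genes Hbb-bs and Hba-a1 by 1.21 and 1.36. Members carried only 3 to 16 UMIs of Mal, Hbb-bs, Hba-a1 and Hes5 each in DOCA-salt 1. None of Pde10a, Rasgrp1, Hes5, Mal, Hbb-bs and Hba-a1 was called without Sham 1 or without Sham 2, and Oxt was not called without DOCA-salt 2 or without Sham 2.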

How the results depend on the processing

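The share difference between treatments turned from -0.589 to 0.0734 points after thinning to 2000 UMIs and to 0.151 after thinning to 4000, and ranged from -1.45 to 0.275 when 1 library was left out. In the comparison of members with other neurons, 489 genes were called. The count was 153 with DESeq2, 1064 with 4 or more gate genes and 110 with the gate applied after thinning (both on 3 libraries, with no member of DOCA-salt 1), 29 without the library block, 240 against other neurons matched in UMIs and 265 against GABAergic ones. It was 209 without nuclei of both populations carrying 2 UMIs of 2 non-neuronal markers (3, 160, 3 and 20 members left), 85 without members carrying 1 UMI of 2 such markers (1, 81, 0 and 5 left, so without Sham 1), and 167 (without DOCA-salt 2) to 678 (without DOCA-salt 1) with 1 library left out. Of the 489 genes, counted by symbol, 473 were also called without DOCA-salt 1. The 71 genes followed through the alternatives were chosen among called genes, and the alternatives reuse much of the same counts, so kept directions are not independent support. Of their 1085 values, 814 kept direction and call, 258 lost the call and 13 reversed. The call was lost for 55 genes without the library block, 40 without members carrying 1 UMI of 2 non-neuronal markers and 35 with DESeq2 (Avp and Rorb included). It was lost for 33 with the gate after thinning, 30 without DOCA-salt 2 and 19 without nuclei carrying 2 UMIs of 2 such markers. Against GABAergic neurons and without Sham 2 it was lost for 13 each, and against matched neurons for 12. Without members carrying 1 UMI of 2 markers, Pmch (0.018), Clock (-0.029) and Gad2 (-0.28) reversed. After thinning, Slc32a1 (-0.026) and Gad2 (-0.23) reversed. Against GABAergic neurons, Slc32a1 (-0.25), Gad2 (-0.17), Fezf1 (0.28), Nr5a1 (0.67), Adcyap1 (0.58), Hcrt (0.032) and Cbln1 (0.17) reversed, and Slc17a6 (12.64) because those neurons were chosen without it.

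Between treatments, 0 genes were called in members, 3 with DESeq2, 1 with RLE size factors, 61 with no filter on low counts, 285 with 4 or more gate genes and 9 with the gate after thinning (both with DOCA-salt 2 as the lone DOCA-salt library, assumed to vary like Sham), 2 and 1 without members carrying non-neuronal markers (at 2 UMIs and at 1), and 0 to 992 with 1 library left out (258 without DOCA-salt 2). Avp, at 1.35, reversed with the replicate block (-0.55), with the crossed one (-0.40) and without DOCA-salt 2, when the members left in that group held none (range -11.91, no bound, to 2.29 with 1 library left out), and Per1, at 0.90, without DOCA-salt 2 (range -0.33 to 1.10). With the replicate block 17 genes were called (3 higher, 14 lower). Same-numbered libraries share only a number: their deviations correlated at r = -0.02 in members (7911 genes) and -0.29 in other neurons (8181 genes). The crossed pairing, chosen after seeing the data, called 0, with 560 genes at an unadjusted p under 0.05.

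The 15 calls on the difference of effects became 41 with 4 or more gate genes and 2 (without Sham 2) to 113 (without DOCA-salt 2) with 1 library left out (97 without DOCA-salt 1). They became 0 with DESeq2, with UMI-matched other neurons, with the gate after thinning (3 libraries), without nuclei carrying 2 UMIs of 2 non-neuronal markers and without members carrying 1 UMI, where 72, 200, 108, 135 and 36 genes had an unadjusted p under 0.05. Vip (-0.85) and Oxt (0.093) reversed after thinning, Oxt (0.98) and Hba-a1 (-0.13) against matched neurons, Hbb-bs without nuclei carrying non-neuronal markers (-0.30 at 2 UMIs, -2.17 at 1), and Vip in the latter fit (-0.36). The causes of these shifts were not tested. The 2-UMI version and the matched comparison without DOCA-salt 1 (568 calls) were chosen after seeing the data.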
